A study of Mus musculus with 2 samples.

Results

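Caveolins and cavins are the coat proteins of caveolae, and their transcripts were measured in fetal mouse esophagus at E18.5, on a wild-type array and on an array labelled as lacking the skeletal muscle factors Myf5 and Myod1. The family has 7 genes, Cav1, Cav2, Cav3, Cavin1, Cavin2, Cavin3 and Cavin4, out of 18193 genes named on the array. They were taken by gene symbol, counting the older symbols Ptrf, Sdpr, Prkcdbp and Murc as Cavin1 to Cavin4, and all their probe sets with that symbol alone were used, 12 in total. The family was selected on the MAS5 signals of both arrays, which were known when it was chosen, so its values and the counts among its members are a description and support nothing further. The 2 members restricted to striated muscle, Cavin4 and Cav3, had the lowest log2 ratios of the family. In the deposited scaling, the brightest probe sets of the 5 widely expressed members did not share a direction.

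The series holds 2 Affymetrix arrays, each of biotin-labelled cRNA made from 6 µg of total RNA. The wild-type (WT) array is labelled BALB/c. The other is labelled BALB/c with null alleles of both Myf5 and Myod, and is called the null-labelled array. Both RNA samples came from fetal esophagus at E18.5. The labels do not say how many embryos went into each sample or how the alleles were made. With 1 array per genotype there is no replicate, no test and no error between animals, and every difference is one between 2 RNA samples.

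Caveolae are small flask-shaped pits of the plasma membrane. Caveolins are hairpin-shaped membrane proteins that bind cholesterol, and cavins are soluble proteins that assemble on them as a coat. Cav1 and Cav2 are found in endothelium, smooth muscle, fibroblasts and adipocytes, whereas Cav3 takes the place of Cav1 in skeletal and cardiac muscle fibers, where it marks the forming transverse tubules and associates with the dystrophin complex. Cavin1 is needed for caveolae in all these tissues, and Cavin4 is the striated muscle cavin. The wall of the mouse esophagus holds smooth muscle early and mostly striated muscle later.

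The letters before the gene starts are shown for the striated muscle members Cavin4 and Cav3 and, for contrast, for Cav2, the member whose brightest probe set had the highest log2 ratio. Each is the 250 bases before the RefSeq start in GRCm38.p6, on the + strand and written 5′ to 3′. Capitals mark every TATAAA on either strand and every E-box (CANNTG, the core letters bound by Myf5, Myod1 and other basic helix-loop-helix factors). The pattern CANNTG is the same on both strands, though the letters of a single site need not be.
Cavin4, chr4:48663264-48663513: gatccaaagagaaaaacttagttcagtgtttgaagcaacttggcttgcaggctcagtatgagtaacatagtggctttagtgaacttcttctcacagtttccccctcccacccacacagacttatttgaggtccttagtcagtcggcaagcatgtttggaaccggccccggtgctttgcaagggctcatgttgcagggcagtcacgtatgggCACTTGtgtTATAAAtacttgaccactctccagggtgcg
Cav3, chr6:112459255-112459504: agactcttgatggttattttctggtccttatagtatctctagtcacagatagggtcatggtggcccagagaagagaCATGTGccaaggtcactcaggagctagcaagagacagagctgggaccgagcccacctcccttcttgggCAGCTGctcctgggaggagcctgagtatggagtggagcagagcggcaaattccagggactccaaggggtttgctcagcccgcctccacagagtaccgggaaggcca
Cav2, chr6:17280935-17281184: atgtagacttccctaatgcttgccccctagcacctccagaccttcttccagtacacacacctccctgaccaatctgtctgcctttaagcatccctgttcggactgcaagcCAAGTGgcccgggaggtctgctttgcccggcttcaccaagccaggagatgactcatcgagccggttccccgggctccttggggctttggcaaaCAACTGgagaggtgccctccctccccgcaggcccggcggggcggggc

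The window of Cavin4 holds 1 E-box, CACTTG, at positions -39 to -34 from the gene start, and a TATAAA just after it, at -30 to -25. The Cav3 window holds 2 E-boxes, CATGTG at -174 to -169 and CAGCTG at -106 to -101, and no TATAAA. The Cav2 window also holds 2 E-boxes, CAAGTG at -140 to -135 and CAACTG at -47 to -42. CAAGTG is the CACTTG of Cavin4 read on the other strand. Windows were found for 6 of the 7 genes, and these 6 genes have 8 windows, since Cav1 and Cavin1 have 2 starts each. Of the 8 windows 5 hold an E-box (both of Cav1 and those of Cav2, Cav3 and Cavin4), against 66.2% of the 32851 windows of all genes. E-boxes are common in such windows. They stood before Cav1 and Cav2, above 0 at their brightest probe sets, and before Cav3 and Cavin4, below 0. The part of E-boxes in the member ratios was not tested. CAGCTG, which is itself one form of CANNTG, lies in 13% of all windows and, among these members, in that of Cav3 alone. TATAAA on either strand lies in 12.4% of all windows and also in that of the upstream start of Cav1. The GC box letters GGGCGG, searched on both strands, lie in 32.7% of all windows and before Cav1 (upstream start), Cav2 and Cavin1, but not before Cavin2, Cav3 or Cavin4. These are matches of letters and not measured binding sites.

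Signals are MAS5 intensities on a linear scale, scaled by the authors to a common level on each array, so a ratio is relative to the total signal of its array. A signal under 489, the median over both arrays without the controls, was raised to 489, and the log2 ratio was taken as null-labelled over WT. A probe set under that limit on 1 array gives a bound, written "at least", and one under it on both was not measured. The median signal without controls was 393 on the WT and 581 on the null-labelled array, and 44.6% and 55.4% of probe sets reached the limit. Dim probe sets thus tended to read higher on the null-labelled array. The arrays correlated with r = 0.92 across the 13315 measured genes, which are not independent replicates. The log2 ratios of probe sets of the same gene differed with a pooled SD of 0.558 (14307 probe sets of 5455 genes), the only error that can be had, and it leaves out animals. Myf5 read 4072 on the WT and 496 on the null-labelled array, while the brighter Myod1 probe set read 2001 and 1698. The positions of the Myf5 and Myod1 probe sets relative to the changes in the alleles are not stated, so neither gene checks the genotype. The Y-linked Eif2s3y read 10.6 and 2402, and the brightest Xist probe set 42465 and 24254, so sex-linked genes also differed between the samples. The 18 hybridization control probe sets read higher on the null-labelled array, by a median log2 ratio of 1.84 (1.57 to 2.11). The 3′ probe sets of the poly-A controls exceeded their 5′ partners in log2 ratio in 9 of 9 pairs, by a median of 0.83. The part of sex and of 3′ bias in the member ratios was not tested.

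**Figure D1:**
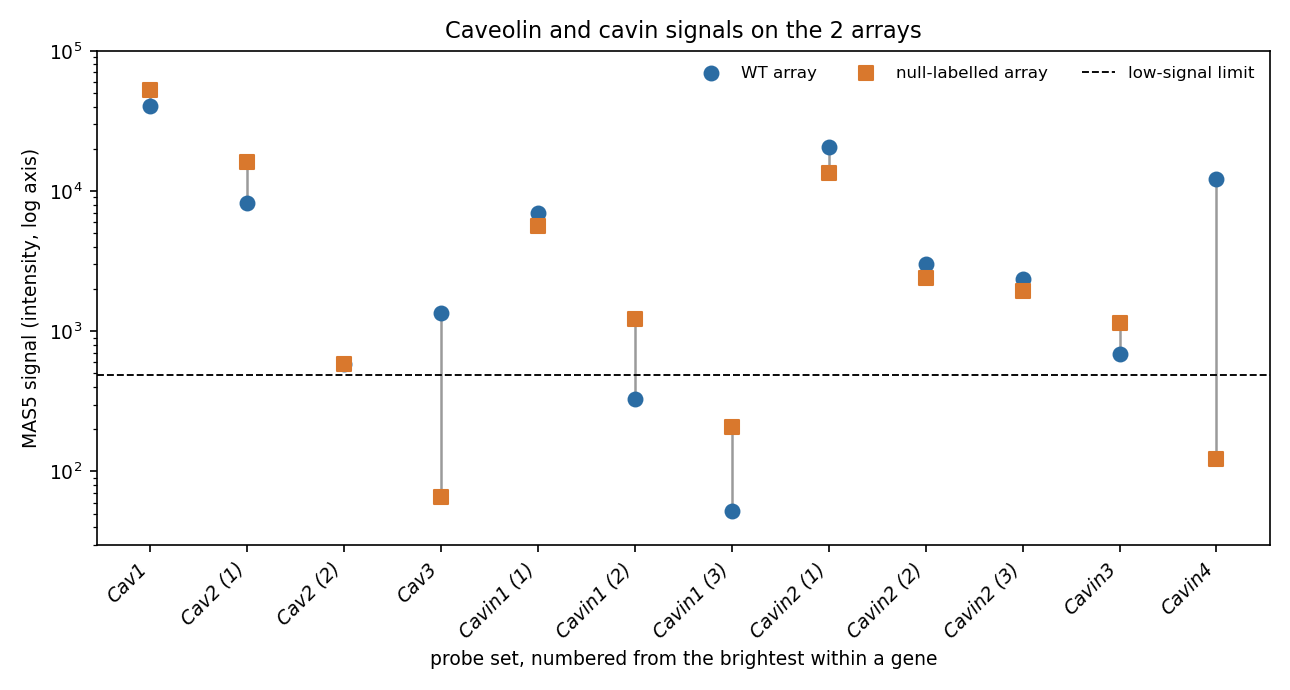
MAS5 signal (log axis) of each of the 12 caveolin and cavin probe sets on the WT array (circles) and the null-labelled array (squares), joined by a line, with the low-signal limit of 489 dashed. Cav3 and Cavin4 lie above the limit on the WT array and below it on the null-labelled array, and the second Cavin1 probe set lies the other way round.

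The striated muscle members are given first. Cavin4, also named Murc, encodes the cavin of skeletal and cardiac muscle, and its 1 probe set read 12128 (WT) and 123 (null-labelled). The first signal was far above the low-signal limit and the second below it, so Cavin4 read at least 24.8-fold lower on the null-labelled array. Its log2 ratio with the limit, -4.63, was matched or passed by only 17 of 22203 measured probe sets, itself included. Of 1601 other named probe sets with a WT signal at least as high, 9 (0.562%) dropped below the limit on the null-labelled array. They belong to Actn2, Atp1b4, Klhl41, Myh8, Myl1, Myom2, Tceal7, Tnnc2 and Ttn, named after their values were seen, and most of these encode sarcomere proteins. As in any whole tissue, fewer cells of a type and less RNA per cell cannot be told apart.

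Cav3 encodes the muscle caveolin, and its 1 probe set read 1347 (WT) and 66.1 (null-labelled). It read at least 2.75-fold lower (log2 ratio -1.46). This bound is small because the WT signal was itself only a few times the limit, and the deposited signals taken as they stand are 20.4-fold apart. For Cavin4 the deposited signals are 98.7-fold apart. Both larger figures rest on a signal below the limit and are not used as sizes. Of 10392 other named probe sets with a WT signal at least that of Cav3, 159 (1.53%) were below the limit on the null-labelled array. Both genes passed the limit through the WT array alone, so their ratios could only lie below 0.

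The widely expressed caveolins differed less between the arrays. Cav1, the principal caveolin outside striated muscle, read 40232 (WT) and 52460 (null-labelled), 1.30-fold higher (log2 ratio 0.38). That difference is smaller than the SD between probe sets of a gene, and 30.3% of all measured probe sets had a ratio as high. Cav2 encodes the partner that forms hetero-oligomers with Cav1. Its brighter probe set read 8248 and 15965, 1.94-fold higher (log2 ratio 0.95), just short of 2-fold, and 6.93% of measured probe sets read as high. Its second probe set, close to the limit on both arrays, read 586 and 581 (log2 ratio -0.014). It lay below 0 in each setting that measured it, at -0.53 with loess. The Cav2 probe sets therefore gave different ratios, and the higher one rests on a single probe set.

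The widely expressed cavins differed among themselves. Cavin1, the cavin that caveolae require, had 3 probe sets. The brightest read 6941 (WT) and 5620 (null-labelled), 1.24-fold lower (log2 ratio -0.30). The second went the other way, from 328 to 1214, at least 2.48-fold higher. It passed the limit through the null-labelled array alone, so its ratio could only lie above 0, and 26.2% of the 17267 other named probe sets under the limit on the WT array also reached the limit on the null-labelled array. The third, at 52.0 and 208, stayed under the limit on both. No direction can be given for Cavin1, since its gene value is -0.30 by the brightest probe set and 0.50 by the median of its measured probe sets.

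Cavin2, also named Sdpr, encodes a cavin that shapes caveolae in endothelium of some organs, and it was the only member whose several measured probe sets all went the same way. They read 20604 and 13484, 3022 and 2403, and 2370 and 1943, in each case the WT signal first. These are 1.53-fold, 1.26-fold and 1.22-fold lower on the null-labelled array, with log2 ratios of -0.61, -0.33 and -0.29. Probe sets of a gene share the RNA sample, so they are not replicates, and 11.8% of all measured probe sets had a ratio as low as the brightest. Cavin3, also named Prkcdbp for its binding of protein kinase C delta, read 693 and 1136, 1.64-fold higher (log2 ratio 0.71). It lay near the limit on the WT array, and 14% of measured probe sets read as high. The brightest probe sets of Cavin2 and Cavin3 were 1.32 apart on the log2 scale.

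Over the family, 11 of 12 probe sets were measured, 8 of them above the limit on both arrays and 3 as bounds. At least 2-fold lower were 2 (Cav3 and Cavin4), against 4.94% of all 22203 measured probe sets. At least 2-fold higher was 1 (the second of Cavin1), against 5.94%. By gene, with the brightest probe set of each, 2 of 7 were lower and 0 of 7 higher, against 5.36% and 6.01% of the 13315 measured genes. The median log2 ratio of the 7 genes was -0.30, against 0.086 for all measured genes, and 4 lay below 0 and 3 above. Of the genes, Cav3 (a bound of -1.46) was the nearest past the 2-fold threshold and Cav2 (0.95) the nearest short of it. All 3 probe sets past 2-fold were bounds, below the limit on 1 array.

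**Figure D2:**
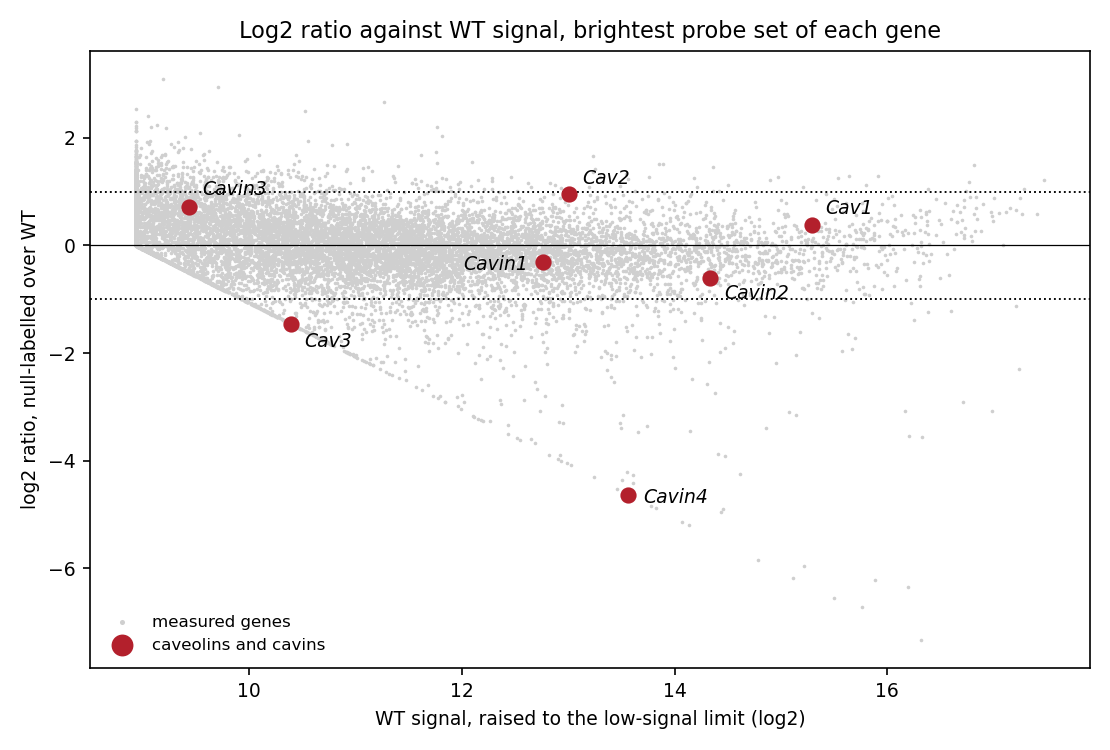
Log2 ratio (null-labelled over WT) against the WT signal (log2, signals under the limit raised to it) for the brightest probe set of each of 13315 measured genes (grey) and the 7 caveolin and cavin genes (red), with 2-fold dotted. Cavin4 (-4.63) and Cav3 (-1.46) lie on the slanted lower edge, where genes under the limit on that array fall, and the other 5 lie between -0.61 and 0.95.

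The size of the ratios depended on the limit and the scaling. Without the limit, or with it lower, the ratio of Cav3 went as low as -4.05 and that of Cavin4 as low as -6.45, and with the limit at the 75th percentile Cav3 was not measured and Cavin4 read -3.12. Over the deposited scaling and 6 other scalings and limits, Cav1, the brighter Cav2 probe set and Cavin3 lay above 0 wherever they were measured, and all Cavin2 probe sets and the brightest of Cavin1 lay below 0. Cavin3, near the limit on the WT array, fell from 0.71 to 0.40 with loess. The brighter Cav2 probe set passed 2-fold with quantile normalization (1.09) and with loess (1.05). When the arrays were instead scaled so that the hybridization controls read alike, an alternative added after the data were seen, the median of all measured probe sets moved to -1.47. Cav1 (-1.45), Cav2 (-0.88) and Cavin3 (-1.12) then fell below 0. The direction of these 3 genes is therefore given relative to the whole array only. With this scaling the brightest probe sets of Cavin1 (-2.14) and Cavin2 (-2.45) stayed below 0, so those of the 5 widely expressed members then shared a direction.

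**Figure D3:**
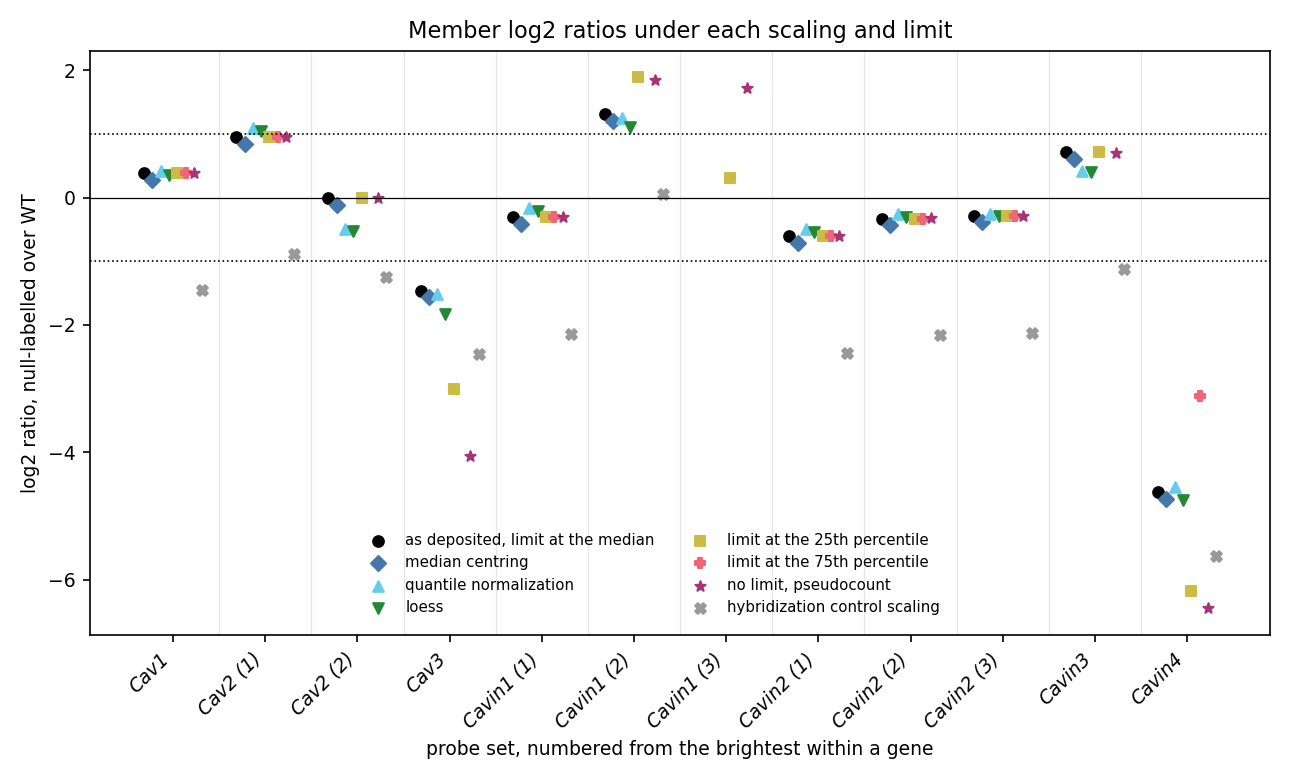
Log2 ratio (null-labelled over WT) for each caveolin and cavin probe set under the deposited scaling, 6 other settings and the added scaling on hybridization controls (grey crosses), with 2-fold dotted. Cavin4 lies between -6.45 and -3.12 under all 8, whereas Cav1 turns from 0.38 to -1.45 with the hybridization controls.

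Genes that act with caveolins and cavins were read from 5 lists, each gene by its brightest probe set. The lists were drawn up with earlier results of these data known. The caveolar coat list, which holds the ATPases and F-BAR proteins at the caveolar neck, had 9 measured genes. Their median log2 ratio was -0.23, against 0.086 for all genes, with 2 lower and 1 higher by at least 2-fold. Of all measured genes, 5.36% were lower and 6.01% higher by 2-fold. Ehd1, a membrane-remodelling ATPase, read 11998 (WT) and 4001 (null-labelled), a log2 ratio of -1.58. Pacsin3, the muscle F-BAR protein that binds the caveolar neck, had a brightest probe set at 6190 and 2857, 2.17-fold lower, and a second measured one with a log2 ratio of -0.049. The receptor Ror1, which binds Cavin1, read 537 and 1209, 2.25-fold higher, and its second probe set 533 and 703 (log2 ratio 0.40). No coat gene was 2-fold higher with quantile normalization, loess, a limit at the 75th percentile or the median over probe sets. Dnm2, the dynamin that cuts vesicles free, read 2585 and 1339 (log2 ratio -0.95), and other Dnm2 probe sets lay at 0.30 and -0.0045. Ehd2, the ATPase that holds caveolae at the cell surface, read 5193 and 6437 (log2 ratio 0.31), with its other measured probe sets between -0.31 and 0.092. The coat list thus had members on both sides of 0, and several genes whose probe sets differed.

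Partners of Cav3 in membrane repair and at the transverse tubules had 10 measured genes (median 0.20). Past 2-fold were 1 lower and 0 higher, a share near the 5.36% and 6.01% of all genes. That gene was Bin1, which bends the membrane into transverse tubules. Its brightest probe set read 2311 and 780, 2.96-fold lower, and a second probe set, below the limit on the WT array, gave a bound of 0.40 on the log2 scale. Myof, a ferlin of membrane fusion, read 719 and 1266 (log2 ratio 0.82). The annexins Anxa1 and Anxa6 read 157991 and 238332 (0.59) and 3078 and 2211 (-0.48). Dysf, the dysferlin gene of muscle membrane repair that interacts with Cav3, read 509 and 262, so its WT signal lay next to the limit and its ratio holds no information on size. Trim72, another repair gene, was below the limit on both arrays.

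In the dystrophin complex, with which Cav3 associates, 0 of 7 measured genes were 2-fold apart in either direction (median -0.053). The largest ratios at the brightest probe set were those of beta-sarcoglycan Sgcb, with signals of 3799 and 2406 (log2 ratio -0.66), and of Dtna, the dystrobrevin gene, with 740 and 1123 (0.60). Other probe sets of both genes went further. A second of Sgcb read 2874 and 1101, 2.61-fold lower, and another gave a bound of -0.87, while those of Dtna lay on both sides of 0, from a bound of -0.76 to a bound of 1.10. Sarcospan Sspn read 6965 and 4708 (-0.57) and dystroglycan Dag1 21210 and 16267 (-0.38). The striated muscle sarcoglycan Sgca read 508 and 87.9, again with a WT signal next to the limit.

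Signalling proteins reported to bind caveolins had 12 measured genes, with 1 lower and 0 higher by 2-fold (median 0.21), against 5.36% and 6.01% of all genes. With quantile normalization or loess these were 2 lower and 1 higher. Of all genes, 6.17% were then lower and 4.16% higher with quantile normalization, and 7.06% and 3.45% with loess. Adcy6, an adenylyl cyclase, read 5698 and 1062, 5.37-fold lower. The insulin receptor Insr read 9442 and 17998 (log2 ratio 0.93), and protein kinase C delta Prkcd, which Cavin3 binds, 856 and 1566 (0.87). Other probe sets of 2 genes of the list passed 2-fold where the brightest did not. A second of the kinase Fyn read 2665 and 847, 3.15-fold lower, against 1869 and 2610 at its brightest, and those of the growth factor receptor Egfr reached 2.23-fold and 2.09-fold higher. The fatty acid carrier Cd36, which depends on caveolae at the cell surface, read 1183 and 708 (-0.74). The flotillins Flot1 and Flot2, which build other membrane domains without caveolins, read 1488 and 1053 (-0.50) and 3752 and 2716 (-0.47) at their brightest probe sets. A second Flot2 probe set lay at 0.35.

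**Figure D4:**
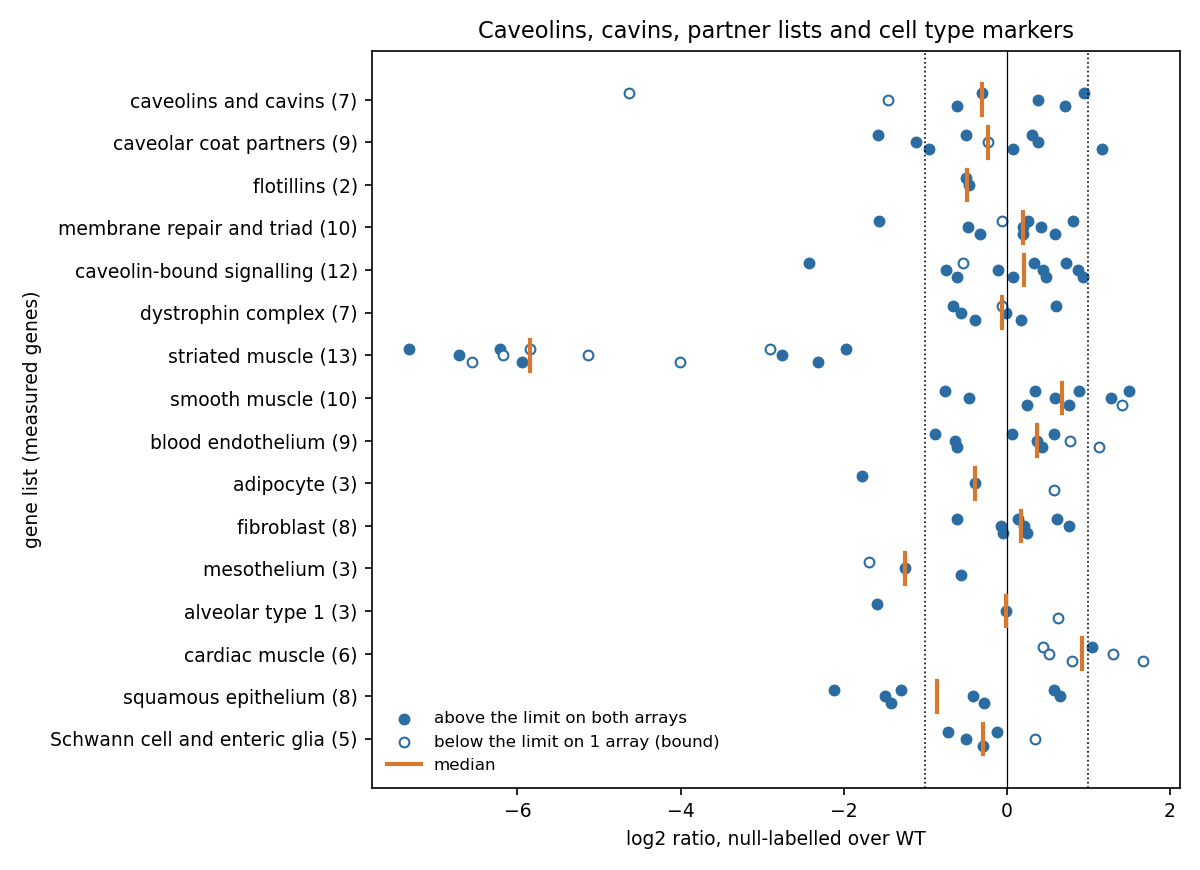
Log2 ratio (null-labelled over WT) for the measured genes of the family, 5 partner lists and 10 cell type marker lists, with the median of each list as a bar, 2-fold dotted and open circles for bounds. Striated muscle markers lie between -7.33 and -1.97, smooth muscle markers have a median of 0.68, and the partner list medians run from -0.48 (flotillins) to 0.21, with single genes from -2.42 (Adcy6) to 1.17 (Ror1).

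Markers of the cell types that could carry these genes moved as follows. All 13 striated muscle markers, of which 6 as bounds, were at least 2-fold lower (median -5.85), against 5.36% of all measured genes. Their summed signal was 413432 on the WT and 10908 on the null-labelled array. Myh3 (161-fold), Ttn (105-fold) and Tnnc2 (at least 94.5-fold) had the largest ratios. The null-labelled signals of Myh3 (507) and Ttn (528) lay next to the limit, so these sizes are uncertain. Other measured Ttn probe sets gave bounds from 3.61-fold to 44.3-fold lower. Cav3 and Cavin4 were lower beside the striated muscle markers, in a direction that the limit fixed for both genes. The 10 smooth muscle markers had a median of 0.68, with 3 higher and 0 lower by 2-fold, against 6.01% and 5.36% of all genes. Among them were Mylk 2.83-fold, Lmod1 at least 2.67-fold and Myocd 2.44-fold higher. The summed signal of the 10 markers was 342064 and 683894, mostly from Mylk (115515 and 326483) and Acta2 (131127 and 242976). Other Mylk probe sets had log2 ratios of 0.084 and 1.86, and measured probe sets of Synpo2 ran from -1.39 to 0.59. With hybridization control scaling the list had a median of -1.16 and 6 genes lower by 2-fold, against 74.4% of all genes. In the deposited scaling, the list median and the brightest probe sets of Cav1 (0.38), Cav2 (0.95) and Cavin3 (0.71) lay above 0. So did 56.6% of all measured genes. The brightest probe sets of Cavin1 (-0.30) and Cavin2 (-0.61) lay below 0, while the median over the measured Cavin1 probe sets was 0.50. For smooth muscle too, 8 markers lay above 0 and 2 below, Tagln and Cnn1.

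Blood endothelium markers had 9 measured genes, with 1 higher and 0 lower by 2-fold (median 0.37, summed signal 11212 and 10618). Of all measured genes, 6.01% were higher and 5.36% lower. With quantile normalization or loess the endothelium counts were 0 higher and 1 lower, against 6.17% or 7.06% of all genes lower. Emcn was at least 2.19-fold higher, Esam 1.83-fold lower and Plvap, the diaphragm protein of endothelial caveolae, at least 1.72-fold higher, while Pecam1 and Tie1 were below the limit on both arrays. None of 8 fibroblast markers was 2-fold apart (median 0.18, summed signal 337713 and 465927), the largest ratios being those of Col3a1 (0.76), Col1a2 (0.62) and Dpt (-0.61). Adipocyte markers were mostly dim. Lpl, which muscle also makes, was 3.41-fold lower, Fabp4 1.31-fold lower and Cidec higher by a bound of 0.58 on the log2 scale, while Adipoq, Pparg and Retn were below the limit on both arrays (3 measured, median -0.39, summed signal 25163 and 12856). Mesothelium markers had 3 measured genes, with 2 lower by 2-fold, against 5.36% of all genes (median -1.25, summed signal 44852 and 19467). Upk3b was at least 3.23-fold, Upk1b 2.38-fold and Msln 1.47-fold lower. Most of the sum was the brightest Upk1b probe set (40067 and 16855), and other Upk1b probe sets had log2 ratios from -1.22 to -0.22.

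Cardiac muscle also expresses Cav3 and Cavin4. Its markers were dim, with a summed signal of 2519 and 6680 that rests mostly on values under the limit. In all, 6 were measured, 5 of them as bounds, with 3 higher and 0 lower by 2-fold (median 0.92), against 6.01% and 5.36% of all genes. Tbx5, Ryr2 and Nkx2-5 were at least 3.19-fold, at least 2.47-fold and 2.06-fold higher, and Tnni3 and Nppa were below the limit on both arrays. The bounds of this list could only lie above 0, as those of Cav3 and Cavin4 could only lie below it, so their directions are not compared. Of 3 measured alveolar type 1 cell markers, Hopx was 3.01-fold lower, Ager at least 1.54-fold higher and Pdpn 1.01-fold lower, and Aqp5 and Rtkn2 were below the limit on both (median -0.012, summed signal 44156 and 28390). The squamous epithelium of the labelled tissue was bright on both arrays, with a summed signal of 294623 and 360749. Most of that sum was the brightest Krt4 probe set (173385 and 259124), and a second Krt4 probe set went the other way (log2 ratio -0.25). The 8 squamous markers had a median of -0.86, with 4 lower and 0 higher by 2-fold, against 5.36% and 6.01% of all genes. Their largest ratios were those of Sprr1a (4.33-fold lower), Sprr3 (2.81-fold lower) and Tgm1 (2.67-fold lower). None of 5 measured Schwann cell and enteric glia markers was 2-fold apart (median -0.29, summed signal 34722 and 23583), with Erbb3 1.65-fold, Pmp22 1.42-fold and S100b, a bound, 1.27-fold from equal. The part of these cell types in the caveolin and cavin ratios was not tested.

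Genes next to the caveolins and Cavin4 on the chromosome were also read. Cav2 and Cav1 lie side by side on chromosome 6 and read 0.95 and 0.38 at their brightest probe sets. The gene on the far side of Cav1 is Met, the receptor of hepatocyte growth factor, which read 15904 and 6847 (log2 ratio -1.22), and that on the far side of Cav2 is Tes, with 5385 and 7619 (0.50). Cav3, elsewhere on chromosome 6, lies between Ssu2, which read 143 and 980 (a bound just past 2-fold), and the oxytocin receptor Oxtr, which was below the limit on both arrays. Cavin4, on chromosome 4, lies between Tmeff1, with 3271 and 2822 (-0.21), and Plppr1, with 46.3 and 986 (a bound of 1.01). Ssu2 and Plppr1 were below the limit on the WT array, so both could only read higher.

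Likeness over 2 arrays was measured as the distance between pairs of log2 signals as deposited, which says nothing of shared function or control. The signals of different probe sets are not on a common scale of abundance. The 5 genes nearest to Cav3 were Lmod2 (1553 and 61.2), Gamt, Fxyd6, Egr2 and Igll1, at distances of 0.232 to 0.383. Lmod2 encodes a leiomodin of striated muscle thin filaments, and all 5 had null-labelled signals under the limit, so that their choice and order are uncertain. The 5 nearest to Cav1 were Ccni (40678 and 52685, a distance of 0.0171), Nbr1 (0.0522), Ssbp1 (0.0629), Dynlt3 (0.0755) and Ssr3 (0.0890). Their log2 ratios ran from 0.26 to 0.41, around the 0.38 of Cav1, and none of these is a muscle marker of the lists above.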

How the data were processed

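The authors deposited 1 signal intensity per probe set and array, summarised and scaled with MAS5 per the submitters' processing notes, whose version and settings are not stated. The table holds 45101 probe sets (64 controls, left out) and no detection calls. Of 45037 others, 34945 have 1 gene symbol in GEO's platform annotation, 932 several and 9160 none. Symbols were updated by Entrez ID through RefSeq (GRCm38.p6), which held 34754.

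Signals under the median of both arrays were raised to it before log2 ratios were taken, and genes took the probe set with the highest mean signal. The members, lists and thresholds were chosen with earlier results of these data known. Named are all member probe sets, in each partner list the 4 largest ratios and any past 2-fold, in each marker list the 3 largest, and the 5 genes nearest to Cav1 and Cav3. Others are named for their role or position. With 1 array per group no test was made, and precision is limited by the number of arrays. The steps were tested on simulated data in which only bright probe sets were changed, so changes to signals under the limit were not checked. Alternatives were median centring, quantile normalization, loess (span 0.3), limits at the 25th and 75th percentiles, a pseudocount of 16 without a limit, the median over the probe sets of each gene, dropping _x_at and _s_at probe sets, a 4-fold threshold and, added later, hybridization control scaling. Python 3.11.15, numpy 2.4.6, pandas 2.3.3 and statsmodels 0.14.6 were used.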

Additional observations from a re-analysis of the deposited data

How the results depend on the processing

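No paired analysis was possible because each group has 1 array, and no replicate could be left out. Cav3 moved from its log2 ratio of -1.46 to -3.00 under a limit at the 25th percentile, -4.05 without a limit and -2.45 with hybridization control scaling, and was not measured with the limit at the 75th percentile. Cavin4 moved to -6.17 and -6.45 in the first pair, to -5.62 with hybridization control scaling and to -3.12 with the limit at the 75th percentile. The 2 probe sets at least 2-fold lower became 1 with the limit at the 75th percentile or a 4-fold threshold, and 9 with hybridization control scaling, where 68.9% of all probe sets were 2-fold lower. The 1 probe set at least 2-fold higher became 2 with quantile normalization (3.9% of all probe sets), loess (3.21%) or no limit (21.3%). It became 0 with the limit at the 75th percentile (1.72%), a 4-fold threshold (0.14%) or hybridization control scaling (0.0504%). Of 390 counts and medians of the lists under the other settings, hybridization control scaling left out, 334 stayed within the probe set SD or 1.5 times a count, and 56 did not. No member ratio or list median past 2-fold changed sign, and the ratios of single list genes were not followed across the settings. The medians of the adipocyte, alveolar, endothelial and membrane repair lists took both signs. Signal near or under the limit bounds the sizes for Cav3, Cavin4 and the dim probe sets of Cavin1 and Cav2, and the cause of each move beyond the limit itself was not tested.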
